A study of Rattus norvegicus with 4 samples.

Results

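The Fc receptors and ITAM adaptors, 9 genes of antibody sensing and its signalling, were followed in rat synovium, the lining tissue of the joint. They were chosen by symbol: Fcgr1a, Fcgr2a, Fcgr2b, Fcgr3a, Fcer1g, Tyrobp, Hcst, Trem1 and Syk. All 9 were among the 17899 rat genes of the expression table, and all 9 passed the filter of at least 1 TPM in at least 2 libraries that left 13371 genes for testing. The synovium came from rats with osteoarthritis, and 4 bulk RNA libraries were made from it. AdMSC 1 was from tissue injected with human AdMSCs and SyMSC 1 from tissue injected with human SyMSCs, mesenchymal stem cells whose abbreviations the labels do not spell out (commonly from adipose tissue and from synovium). PBS 1 and PBS 2 were from tissue that had been given PBS, a buffered salt solution, by the treatment label; their titles read "Ad mix" and "Sy mix", and the word mix is not explained. Collection was on the day after the cells were given. Strain, sex, age and the way osteoarthritis was produced are not stated in the labels, nor whether the libraries came from separate animals or pooled tissue. The p-values therefore measure only the spread between these libraries, which may be technical. In the injected pair that spread also holds any difference between AdMSCs and SyMSCs. Values are TPM, a length-normalised share of each library's transcripts, so levels can be compared between genes. TPM keeps no read depth, and no counting interval can be given.

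Fc receptors bind the constant tail of antibodies and so let leukocytes respond to antibody-coated targets. Most activating Fc receptors have no signalling tail of their own and sit beside a small partner protein, the Fc receptor gamma chain (Fcer1g), whose tail carries an ITAM, a paired tyrosine motif. Tyrobp (also called DAP12) is a second ITAM adaptor, used by TREM1 and many other receptors of myeloid and NK cells, and Hcst (DAP10) is a related adaptor that carries a motif for PI3-kinase in place of an ITAM. Src family kinases phosphorylate the ITAM, the kinase SYK docks on it, and the signal runs on to phagocytosis, oxidative burst and cytokine release. Fcgr2b works against this: its tail carries an inhibitory motif (ITIM) that recruits phosphatases. In synovium these genes are known mainly from macrophages, and from the neutrophils and monocytes that enter an inflamed joint.

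Rat receptor names differ between sources. For the gene ID of Fcgr2a (116591), the RefSeq gene table of the assembly GRCr8 gives the synonyms Fcgr3 and Fc gamma RIII. For that of Fcgr3a (304966) it gives Fcgr4. Fcgr2b (289211) has the synonyms Fcgr2 and CD32. The symbols of the expression table are used throughout. These receptor genes are close paralogs, among which reads can be divided, so the levels of Fcgr2a, Fcgr2b and Fcgr3a are uncertain by an unknown amount. Tyrobp and Hcst lie next to each other on chromosome 1 in that assembly, and the use of strand in counting is not stated in the labels.

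RefSeq promoter windows (GRCr8) were found for 5 of the 9 genes, 6 windows in all, since Fcgr2a has a pair of start sites. The 250 bases before each start were searched on both strands for GAGGAA, the core of many sites of PU.1, the transcription factor of myeloid cells. It occurred in 3 of the 6 windows, beside 23.3% of all 33469 windows of the same length. The windows with a match are shown because they set a gene with a large rise (Fcgr2a), the downstream kinase (Syk) and the member whose groups overlapped (Fcgr3a) side by side. Sequences run 5′ to 3′ on the strand of the gene, and capitals mark the match, which reads TTCCTC where it lies on the other strand. Fcgr2a is at chr13:85828686-85828935 (minus strand), with matches that begin 143 and 102 bases before the start. Fcgr3a is at chr13:85782386-85782635 (plus strand), with a match 54 bases before the start. Syk is at chr17:12813274-12813523 (minus strand), with a match 62 bases before the start.
Fcgr2a: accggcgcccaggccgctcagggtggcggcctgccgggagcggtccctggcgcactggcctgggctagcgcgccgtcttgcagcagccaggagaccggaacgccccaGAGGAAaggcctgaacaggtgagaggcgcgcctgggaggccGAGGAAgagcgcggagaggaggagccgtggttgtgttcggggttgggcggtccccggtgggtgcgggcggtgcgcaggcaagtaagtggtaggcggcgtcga
Fcgr3a: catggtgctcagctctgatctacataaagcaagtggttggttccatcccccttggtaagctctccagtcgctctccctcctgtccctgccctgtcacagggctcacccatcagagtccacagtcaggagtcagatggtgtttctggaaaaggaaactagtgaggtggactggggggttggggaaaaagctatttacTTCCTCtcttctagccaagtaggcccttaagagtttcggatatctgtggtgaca
Syk: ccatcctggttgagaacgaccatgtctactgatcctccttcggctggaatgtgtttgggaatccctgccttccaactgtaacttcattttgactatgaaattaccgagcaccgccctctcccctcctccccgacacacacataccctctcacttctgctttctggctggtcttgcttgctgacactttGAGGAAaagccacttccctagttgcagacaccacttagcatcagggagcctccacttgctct
The match is thus present before Fcgr2a and Syk, which rose after injection, and before Fcgr3a, which did not pass the test. The windows of Hcst and Trem1 and the other Fcgr2a window held none. Start sites were taken as RefSeq lists them, and the one listed for Trem1 may lie at an internal exon of a predicted transcript, so its window may not be the promoter. A match is only a string of letters, and no binding was measured.

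The first comparison set the libraries of cell-injected tissue, whatever the source of the cells, against those of PBS tissue. The injected pair is AdMSC 1 with SyMSC 1, so SDs of injected values include the difference between these treatments. 8 of the 9 genes were higher after injection, none was lower, and Fcgr3a did not pass the test (limma on log2(TPM + 1), adjusted p under 0.05 over all genes tested). Over all genes, 23.7% were called higher and 24.7% lower. The median log2 change was 2.34 for the 9 genes and 0.00087 for all genes tested. In 8 of the 9 genes both injected libraries lay above both PBS libraries, as did 39.5% of all genes. Together the 9 genes held 2383.5 and 2391.9 TPM in PBS 1 and PBS 2, and 10049 and 11693 TPM in AdMSC 1 and SyMSC 1. That is 0.238% and 0.239% of the transcripts in the PBS libraries, and 1.005% and 1.17% in the injected ones. In bulk tissue, a gain in the number of cells that carry a transcript and a gain of that transcript per cell cannot be told apart.

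**Figure D1:**
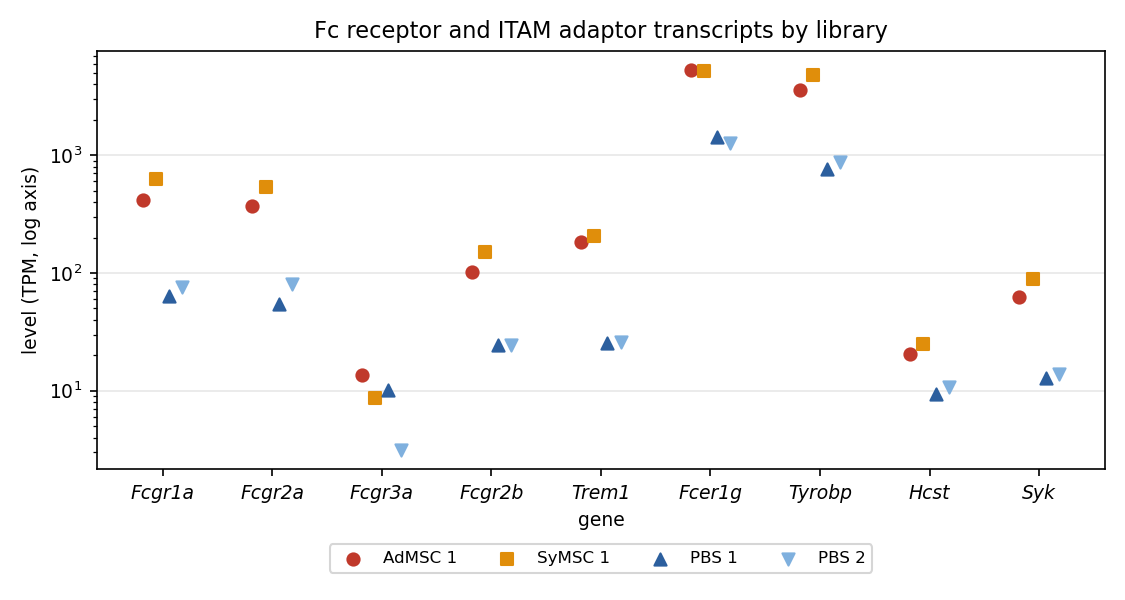
Level of each gene (TPM, log axis) in the 4 libraries; each point is 1 library. In 8 genes both injected libraries lie above both PBS libraries, while for Fcgr3a AdMSC 1 is highest, PBS 2 lowest, and SyMSC 1 falls below PBS 1.

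Among the activating receptors, Fcgr1a (gene ID 295279), the high-affinity receptor for IgG, was listed at 414 TPM in AdMSC 1, 633 TPM in SyMSC 1, 63.4 TPM in PBS 1 and 76.7 TPM in PBS 2. The injected libraries averaged 524 ± 155 TPM and the PBS libraries 70.03 ± 9.45 TPM (mean ± SD, n = 2 each), a 7.48-fold difference of means (log2 change 2.86, SE 0.23, limma adjusted p = 0.000524). Both injected values stood well clear of the PBS values, and the injected libraries differed more from each other than the PBS libraries did.

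Fcgr2a, a low-affinity IgG receptor that signals through the gamma chain, followed it closely. Its levels were 374 TPM in AdMSC 1, 542 TPM in SyMSC 1, 54.1 TPM in PBS 1 and 80.3 TPM in PBS 2. The change was 6.82-fold (log2 change 2.75, SE 0.26, limma adjusted p = 0.00108), and the groups did not overlap. Per TPM of Fcgr1a, Fcgr2a stood at 0.904 and 0.856 TPM in AdMSC 1 and SyMSC 1 and at 0.853 and 1.05 TPM in PBS 1 and PBS 2, so the ratio of these receptors overlapped between the groups.

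Fcgr3a was the exception. This receptor was the least abundant of the 4 Fc gamma receptors in every library, at 13.7 TPM in AdMSC 1, 8.72 TPM in SyMSC 1, 10.05 TPM in PBS 1 and 3.13 TPM in PBS 2. The groups overlapped, since PBS 1 exceeded SyMSC 1. The log2 change was 0.82 (SE 0.56, limma adjusted p = 0.29). The PBS libraries decided this call: without PBS 1 the log2 change was 1.53 (limma adjusted p = 0.00736), and without PBS 2 it was 0.11 (limma adjusted p = 0.787). PBS 1 also stood above PBS 2 in hemoglobin (Hba1 at 20161 and 7064 TPM) and in genes of immature neutrophils (Ngp, a granule protein, at 80.8 and 5.97 TPM); their part in the Fcgr3a values was not tested.

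The inhibitory receptor Fcgr2b rose with the activating ones. It was listed at 103 TPM in AdMSC 1, 151 TPM in SyMSC 1, 24.34 TPM in PBS 1 and 24.25 TPM in PBS 2, a 5.23-fold difference of means (log2 change 2.31, SE 0.20, limma adjusted p = 0.00055). The PBS libraries were nearly equal, and both injected libraries were far above them. As a share of the summed TPM of the 4 Fc gamma receptors, Fcgr2b made up 16.03% and 13.2% in PBS 1 and PBS 2 and 11.4% and 11.3% in AdMSC 1 and SyMSC 1. Its share was thus lower in both injected libraries, by 3.25 percentage points between the means (11.4 ± 0.0403% and 14.6 ± 2.04%, SD, n = 2 each), with no test. The shares of PBS 1 and PBS 2 lay nearly as far from each other. Fcgr1a took 45.7% and 47.4% of the sum in AdMSC 1 and SyMSC 1 and 41.7% and 41.6% in PBS 1 and PBS 2. Fcgr3a took 1.51% and 0.653% in the injected libraries and 6.62% and 1.70% in the PBS libraries.

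**Figure D2:**
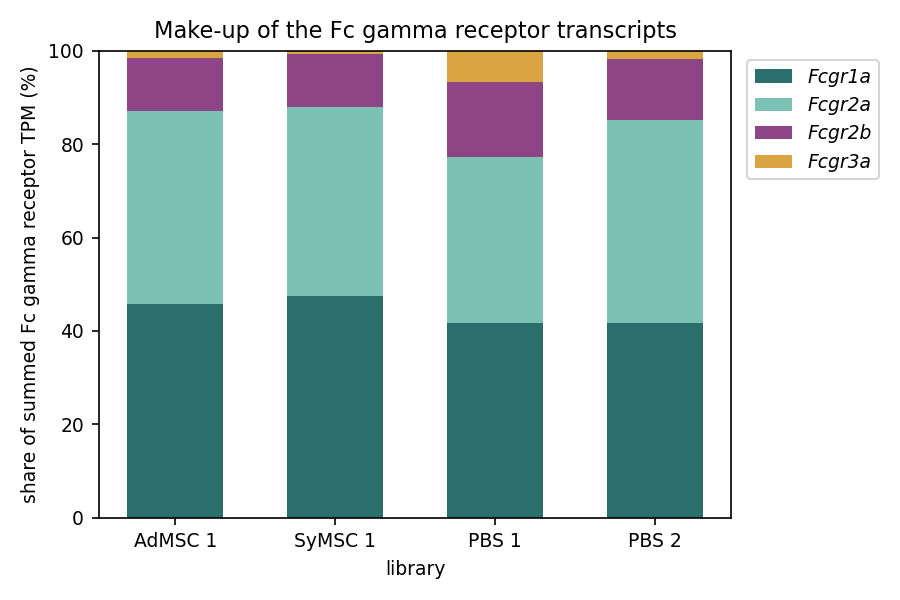
Share of the summed TPM of 4 Fc gamma receptor genes (percent, stacked bars) in each library. Fcgr1a and Fcgr2a make up most of the sum everywhere; the inhibitory Fcgr2b is at 11.4% and 11.3% in the injected libraries and at 16.03% and 13.2% in the PBS libraries.

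Trem1 (gene ID 301229) is not an Fc receptor but an amplifier of inflammatory responses on neutrophils and monocytes, and it signals through Tyrobp. It had the largest log2 change of the 9 genes, with 185 TPM in AdMSC 1, 208 TPM in SyMSC 1, 25.5 TPM in PBS 1 and 26.1 TPM in PBS 2 (7.62-fold; log2 change 2.88, SE 0.13, limma adjusted p = 0.000187). The values of each pair of libraries were close together, and the groups did not overlap. The change of Fcgr1a (2.86) was within 1 SE of that of Trem1.

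The ITAM adaptors Fcer1g and Tyrobp were the most abundant of the 9 genes. Fcer1g (gene ID 25441) was at 5322 TPM in AdMSC 1, 5187 TPM in SyMSC 1, 1417.5 TPM in PBS 1 and 1276 TPM in PBS 2, which placed it 15th and 17th among all genes of the injected libraries and 110th and 126th in the PBS libraries. Its estimated rise, not tested against those of the others, was smaller than those of Fcgr1a, Fcgr2a and Fcgr2b, at 3.90-fold (log2 change 1.97, SE 0.12, limma adjusted p = 0.000304). There were 6.64 and 4.38 TPM of Fcer1g per summed TPM of Fcgr1a, Fcgr2a and Fcgr3a in AdMSC 1 and SyMSC 1, and 11.1 and 7.97 TPM in PBS 1 and PBS 2. The adaptor was therefore more abundant than these 3 receptors in every library, by a smaller factor in both injected libraries, with no test of that ratio.

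Tyrobp (gene ID 361537) was at 3556 TPM in AdMSC 1, 4848 TPM in SyMSC 1, 766.5 TPM in PBS 1 and 881 TPM in PBS 2 (5.10-fold; log2 change 2.34, SE 0.18, limma adjusted p = 0.000466). Both injected libraries were above both PBS libraries. Per TPM of Fcer1g, Tyrobp stood at 0.541 and 0.691 TPM in the PBS libraries and at 0.668 and 0.935 TPM in AdMSC 1 and SyMSC 1. This ratio overlapped between the groups, so the balance of the ITAM adaptors did not separate injected from PBS tissue.

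Hcst (gene ID 474146), which serves the NK and T cell receptor NKG2D, was a scarce transcript, at 20.4 TPM in AdMSC 1, 25.1 TPM in SyMSC 1, 9.31 TPM in PBS 1 and 10.7 TPM in PBS 2. It had the smallest rise of the 8 called genes (2.28-fold; log2 change 1.11, SE 0.16, limma adjusted p = 0.00276). The groups did not overlap. Tyrobp exceeded Hcst by 174-fold and 193-fold in AdMSC 1 and SyMSC 1 and by 82.3-fold and 82.7-fold in PBS 1 and PBS 2. Klrk1, which encodes NKG2D itself, was at 12.1, 10.4, 8.76 and 4.15 TPM in AdMSC 1, SyMSC 1, PBS 1 and PBS 2 (log2 change 0.78, limma adjusted p = 0.0903) and did not pass.

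Syk (gene ID 25155), the kinase that docks on phosphorylated ITAMs, was listed at 61.97 TPM in AdMSC 1, 89.4 TPM in SyMSC 1, 12.95 TPM in PBS 1 and 13.9 TPM in PBS 2 (5.64-fold; log2 change 2.39, SE 0.19, limma adjusted p = 0.000499). All values after injection were well above the PBS values. Per 100 TPM of the 3 adaptors there were 0.696 and 0.889 TPM of Syk in AdMSC 1 and SyMSC 1 and 0.590 and 0.641 TPM in PBS 1 and PBS 2.

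By level, the order of the 9 genes in the means of the PBS libraries was Fcer1g, Tyrobp, Fcgr1a, Fcgr2a, Trem1, Fcgr2b, Syk, Hcst and Fcgr3a. The order of the injected means was the same. Fcgr1a and Fcgr2a exchanged places in PBS 2 and lay within the spread of the PBS libraries (70.03 ± 9.45 and 67.2 ± 18.5 TPM). In the injected libraries their means (524 ± 155 and 458 ± 119 TPM) were also closer than the SDs. Fcgr3a and Hcst were likewise not separated in the PBS libraries (6.59 ± 4.89 and 9.99 ± 0.955 TPM), with Fcgr3a above Hcst in PBS 1.

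By cell source, each injected group is 1 library. SyMSC 1 was above AdMSC 1 in 7 of the 9 genes, beside 34.3% of all genes tested. Fcgr1a was 1.53 times as high in SyMSC 1 as in AdMSC 1, Fcgr2b 1.47 times, Fcgr2a 1.45 times, Syk 1.44 times, Tyrobp 1.36 times, Hcst 1.23 times and Trem1 1.12 times. Fcer1g (0.975 times) and Fcgr3a (0.639 times) went the other way as deposited, and Fcer1g changed sides under median-ratio and upper-quartile scaling. As deposited, Fcgr1a alone reached a ratio of 1.5 on TPM + 1, as did 4.21% of all genes. The count depended on the scaling: 4 of the 9 genes reached that ratio under median-ratio scaling (5.18% of all genes) and 3 under upper-quartile scaling (4.76% of all genes). SyMSC 1 was then above AdMSC 1 in 8 of the 9 genes under each of these scalings, beside 47.3% and 42.5% of all genes. The median log2 difference (SyMSC 1 minus AdMSC 1) was 0.45 for the 9 genes and -0.09 for all genes. A lean to SyMSC 1 was not particular to the 9 genes. Among gene lists described below, the median was 0.375 for other receptors that pair with ITAM or DAP10 adaptors. It was 0.245 for pan-leukocyte genes, 0.152 for monocyte and macrophage markers and 1.26 for neutrophil markers, but -0.106 for other Fc receptors.

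In a limma fit with 3 groups, in which the lone libraries are assumed to vary like the PBS libraries, 0 of the 9 genes passed the test between the sources (adjusted p between 0.627 and 0.985). Over all genes 0 of 13371 (0%) were called, with 861 at an unadjusted p under 0.05, among them 3 of the 9 genes (Fcgr1a, Fcgr2b and Syk). The differences were 0.61 (SE 0.20) for Fcgr1a, 0.55 (SE 0.16) for Fcgr2b, 0.52 (SE 0.17) for Syk and -0.04 (SE 0.20) for Fcer1g on the log2 scale. With 1 residual degree of freedom this does not show that the sources act alike.

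Against the PBS libraries, each source on its own showed the same 8 genes as called in that fit. The background was 17.9% of genes called higher for AdMSC and 18.2% for SyMSC. These comparisons share their PBS libraries, so their values are given side by side. Fcgr1a changed by 2.55 with AdMSCs and 3.17 with SyMSCs (log2, SE 0.17 each), Trem1 by 2.80 and 2.96 (SE 0.13 each), Tyrobp by 2.11 and 2.56 (SE 0.17 each), and Fcer1g by 1.98 and 1.95 (SE 0.17 each). Hcst changed by 0.97 and 1.25 (SE 0.18 each). Set against the PBS library that shares its title word, AdMSC 1 was 6.53 times PBS 1 and SyMSC 1 8.26 times PBS 2 for Fcgr1a, and 1.36 and 2.79 times for Fcgr3a.

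**Figure D3:**
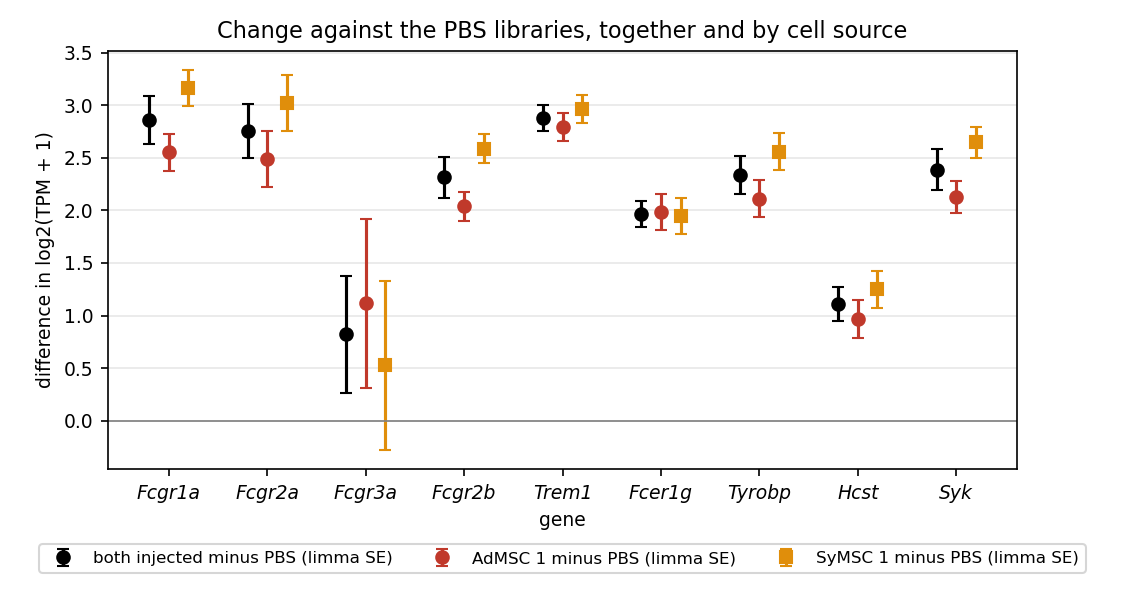
Difference in log2(TPM + 1) against the PBS libraries for both injected libraries together (black) and for each cell source (red circles AdMSC 1, orange squares SyMSC 1); bars are limma standard errors. Except for Fcgr3a every estimate lies above 0 by several standard errors, and the sources are closest for Fcer1g (1.98 and 1.95).

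The rest of the pathway was read from gene lists, and log2 changes (injected minus PBS) are given in brackets. Counts of genes that rose or fell in these lists stand beside 23.7% of all genes called higher and 24.7% called lower. Of 21 tested genes on a broad list of other receptors that pair with ITAM or DAP10 adaptors, 16 rose, 0 fell and 5 did not pass. Their median log2 change was 2.07. Treml1, Gp6 and Ncr3, counted among the genes that rose, reached 1 TPM only in the injected libraries. They passed the filter through that difference, so their calls add no support for a rise of the list. Pairing was not checked for each gene, and the list holds Clec4a2, an ITIM lectin counted again among the inhibitors below. Clec4e, a lectin that uses Fcer1g, went from 1.42 and 2.77 TPM in PBS 1 and PBS 2 to 69.97 and 219.6 TPM in AdMSC 1 and SyMSC 1 (log2 change 5.37, limma adjusted p = 0.00934). The osteoclast-associated receptor gene Oscar, also a partner of Fcer1g, went from 1.03 and 1.74 to 65.4 and 85.1 TPM (limma adjusted p = 0.000182). Clec5a, a Tyrobp partner (4.33), and Clec4d, a lectin paired with Clec4e (4.15), rose as well. Trem2, the Tyrobp partner of lipid-handling macrophages, rose by less, from 166.6 and 202.7 to 347 and 293.5 TPM (log2 change 0.79, limma adjusted p = 0.00825); it was picked out after its value was seen. The list draws on C-type lectin and CD300 families, whose paralogs can divide reads.

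Kinases upstream of SYK divided by family member. Of 13 tested Src and Tec family kinase genes with Zap70, 7 rose, 1 fell and 5 did not pass (median 0.84). The Src kinases Fgr (2.92) and Lyn (1.89), both known from myeloid cells, rose, as did the Tec kinase Btk (2.14). Fgr stood at 186 and 245 TPM in AdMSC 1 and SyMSC 1 and at 29.6 and 25.2 TPM in PBS 1 and PBS 2. The widely expressed Src (-0.26, limma adjusted p = 0.209) and Fyn (-0.16, limma adjusted p = 0.35) did not pass, and Yes1 was the gene that fell (-0.82, limma adjusted p = 0.0389); these 3 were chosen after their values were seen.

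Downstream of SYK, 20 of 26 genes rose, 2 fell and 4 did not pass (median 1.51). The largest changes were those of Vav1, an exchange factor for Rac (2.68), Pik3ap1, an adaptor for PI3-kinase (2.45), Fyb1, an adaptor of the actin machinery (2.39) and the transmembrane adaptor Lat2 (2.24). Vav1 went from 6.95 and 7.92 TPM in PBS 1 and PBS 2 to 46.6 and 60.06 TPM in AdMSC 1 and SyMSC 1. The genes that fell were Plcg1 (-1.36), the phospholipase isoform of most tissues, and Pik3r1 (-0.57), a regulatory subunit of PI3-kinase, while the leukocyte isoform Plcg2 rose (0.93); these were named after their values were seen.

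Genes that restrain ITAM signals rose alongside. In the list of inhibitors 20 of 24 tested genes rose, 1 fell and 3 did not pass (median 1.41). Pag1 and Ubash3a, counted among those that rose, passed the filter only through the injected libraries, so their calls add no support. Lilrb4, an ITIM receptor of myeloid cells, went from 106 and 107 TPM in PBS 1 and PBS 2 to 822 and 1144 TPM in AdMSC 1 and SyMSC 1 (log2 change 3.18, limma adjusted p = 0.000257). The ITIM lectin Clec4a2 (3.14), which is also on the list of pairing receptors, the ITIM receptor Cd300a (2.74) and the inhibitory lectin Clec12a (2.43) followed. The phosphatase genes Inpp5d (SHIP1; 2.16) and Ptpn6 (SHP-1; 1.81), through which ITIM receptors act, also rose. The gene that fell was Pecam1, an ITIM protein that is abundant in endothelium, at 145 and 173 TPM in PBS 1 and PBS 2 and 45.1 and 33.6 TPM in AdMSC 1 and SyMSC 1 (limma adjusted p = 0.000661). All 6 of 6 endothelial marker genes, of which Pecam1 is itself a member, were called lower, beside 24.7% of all genes. Inpp5d, Ptpn6 and Pecam1 were named after their values were seen.

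Other Fc receptors went a different way. Of 7 tested, 1 rose, 4 fell and 2 did not pass (median -0.68), and 5 more were below the filter. The neonatal Fc receptor Fcgrt, which recycles IgG and is widespread in endothelium and macrophages, was at 117 and 106 TPM in AdMSC 1 and SyMSC 1 and at 334.5 and 445 TPM in PBS 1 and PBS 2 (log2 change -1.78, limma adjusted p = 0.000763). Fcmr, the receptor for IgM (-1.09), and Fcrl2 (-0.78) fell, and Fcrlb rose (1.11), from 1.52 and 1.36 to 4.17 and 4.39 TPM. The IgE receptor of mast cells, which shares Fcer1g, was near the floor. Fcer1a was listed at 0.32, 0.6, 1.05 and 0.8 TPM in AdMSC 1, SyMSC 1, PBS 1 and PBS 2. Ms4a2, its beta chain, was at 0.66, 0.27, 1.22 and 1.42 TPM in the same order (log2 change -0.67, limma adjusted p = 0.0376). It is counted among the genes that fell, but it passed the filter only through the PBS libraries. Its call therefore adds no support for a fall.

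On the ligand side, Pglyrp1, a neutrophil granule protein that can engage TREM1, rose from 20.5 and 13.3 TPM in PBS 1 and PBS 2 to 59.5 and 102 TPM in AdMSC 1 and SyMSC 1 (log2 change 2.17, limma adjusted p = 0.00622), and Hmgb1, a nuclear protein also proposed as a ligand, did not pass (-0.09, limma adjusted p = 0.699). Sdc1, present on plasma cells and on many other cells, rose (1.43). The plasma cell gene Mzb1 was at or below 0.3 TPM in every library, and Cd79a did not pass (0.94, limma adjusted p = 0.361). Of the 5 tested genes of this list 2 rose and 3 did not pass. Among the lymphocyte ITAM subunits 3 of 6 rose, 0 fell and 3 did not pass (median 0.81): Cd3g (1.20), Cd3e (0.84) and Cd247 (0.74), subunits of the T cell receptor complex. Another subunit of that complex, Cd3d (0.78, limma adjusted p = 0.0906), did not pass, nor did Cd79a and Cd79b, the B cell ITAM chains.

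**Figure D4:**
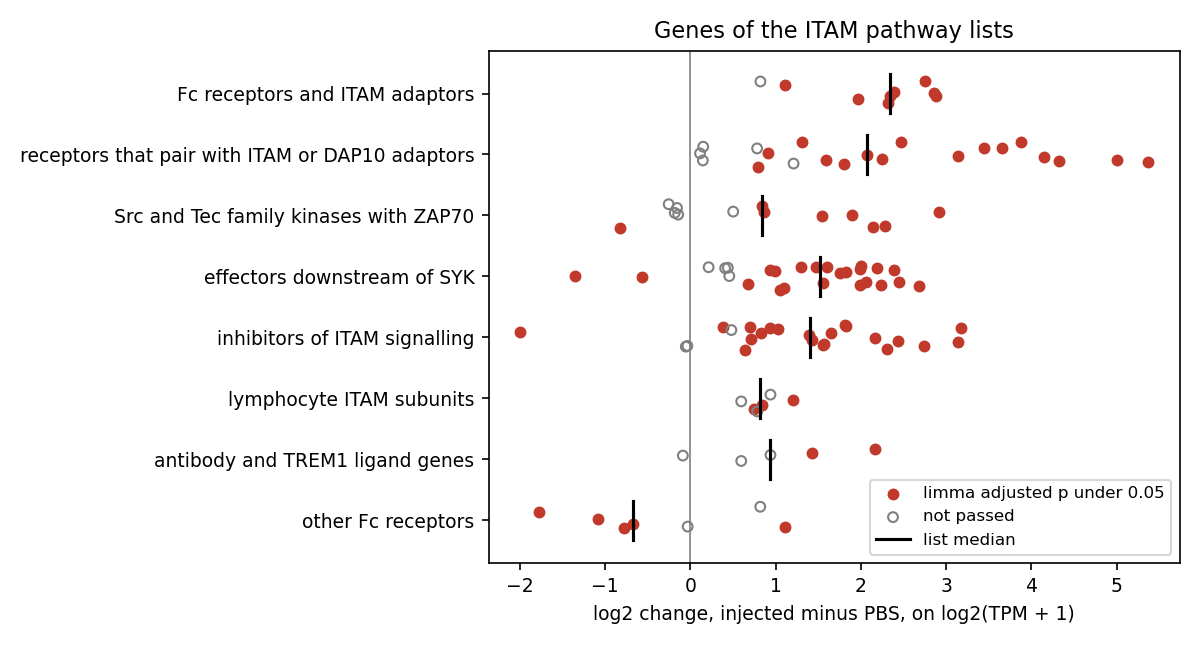
Log2 change, injected minus PBS, of each tested gene in 8 gene lists; filled points passed limma at an adjusted p under 0.05, open points did not, and black lines mark list medians. The medians are 2.34 for the 9 genes, 2.07 for the pairing receptors and -0.68 for the other Fc receptors.

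Leukocyte marker genes moved by different amounts, depending on the cell type. Their counts stand beside 23.7% of all genes called higher and 24.7% called lower. The summed TPM of 6 pan-leukocyte genes (Ptprc, Itgb2, Coro1a, Laptm5, Cd53 and Lcp1) was 463 and 475 in PBS 1 and PBS 2 and 2163 and 2574 in AdMSC 1 and SyMSC 1, a 5.05-fold difference of means. Of 12 monocyte and macrophage marker genes 8 rose and 1 fell, with sums of 23566 and 31616 TPM after injection and 10330 and 11988 TPM with PBS, most of it Lyz2. Of 11 tested neutrophil marker genes 5 rose and 0 fell, with sums of 2314 and 4101 TPM after injection and 366.5 and 108 TPM with PBS. The genes that did not pass were Mmp8 (log2 change 2.83), Mmp9 (1.38), Elane (1.26), Mpo (-0.84), Camp (-0.38) and Ngp (-0.28). Of 8 T cell markers 6 rose and 1 fell (sums of 397 and 458 TPM after injection, 211 and 240.1 TPM with PBS). Most of that sum was Cd4, Cd8a, Cd2 and Cd8b, and the cells that carried these transcripts were not identified. Log2 changes were 4.44 for Cd8a, 3.49 for Cd8b, 3.04 for Cd2 and -0.63 for Cd4. Those of Cd3d, Cd3e, Cd3g and Cd247 lay between 0.74 and 1.20. Of 5 tested dendritic cell markers 2 rose and 1 fell (32.6 and 66.5 TPM after injection, 15.4 and 10.5 TPM with PBS). B and plasma cell markers did not pass in 3 of 3 tested cases (7.36 and 23.5 TPM, 12.02 and 3.18 TPM), and of 6 tested mast cell markers 0 rose and 3 fell (48.5 and 19.7 TPM, 86.7 and 109.9 TPM). Ms4a2 is among the mast cell genes counted as lower, and it passed the filter only through the PBS libraries. NK cell markers (1 of 5 tested rose) summed to 23.2 and 27.8 TPM after injection and 24.8 and 11.1 TPM with PBS. No gene of these lists was at 0 in every library, and the part of these cell types in the changes of the 9 genes was not tested. All 10 synovial fibroblast markers had values above 0 in every library, with Prg4 (lubricin) between 2448 and 4192 TPM; 7 of these 10 genes fell and 1 rose.

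Set against the pan-leukocyte sum of the same library, the 9 genes went different ways, some by narrow margins. Fcgr1a, Fcgr2a and Trem1 were higher in both injected libraries than in both PBS libraries. Fcer1g, Hcst and Fcgr3a were lower in both, and Fcgr2b, Tyrobp and Syk overlapped. The gap was small for Fcgr2a, at 17.3 TPM per 100 TPM of the sum in AdMSC 1 and 16.9 in PBS 2. It was also small for Fcgr3a, at 0.631 in AdMSC 1 and 0.660 in PBS 2. Over all tested genes 2.04% were higher by this measure and 94.4% lower, since most genes are not leukocyte genes. Trem1 stood at 8.56 and 8.08 TPM per 100 TPM of the sum in AdMSC 1 and SyMSC 1 and at 5.50 in both PBS libraries. Fcgr1a stood at 19.1 and 24.6 after injection and at 13.7 and 16.2 with PBS. Tyrobp was at 164 and 188 after injection and at 166 and 186 with PBS, so it rose about as much as the leukocyte genes. Fcer1g was at 246 and 201.5 after injection and at 306 and 269 with PBS. Hcst was at 0.945 and 0.975 after injection and at 2.01 and 2.25 with PBS.

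This measure depends on the reference. Per TPM of Ptprc alone, 2 of the 9 genes (Fcgr1a and Trem1) were higher in both injected libraries, and 6 were lower in both. The higher genes cleared PBS 2 narrowly. Per 100 TPM of Ptprc, Fcgr1a stood at 397.0 in AdMSC 1 and 395.8 in PBS 2, and Trem1 at 136.5 in SyMSC 1 and 134.8 in PBS 2. Per summed monocyte and macrophage markers 7 were higher and 1 (Hcst) was lower, and without Lyz2 in that sum 8 were higher and 0 lower. Without Lyz2 the sum was 2168 and 2751 TPM in PBS 1 and PBS 2 and 4264 and 4405 TPM in AdMSC 1 and SyMSC 1. Although 8 of the 12 markers rose, C1qa (509 and 675 TPM with PBS, 405 and 475 after injection) and C1qb (664 and 947, 495 and 514) were lower after injection. Their weight in the PBS sums was large, and its part in these counts was not tested. These are ratios with no test.

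**Figure D5:**
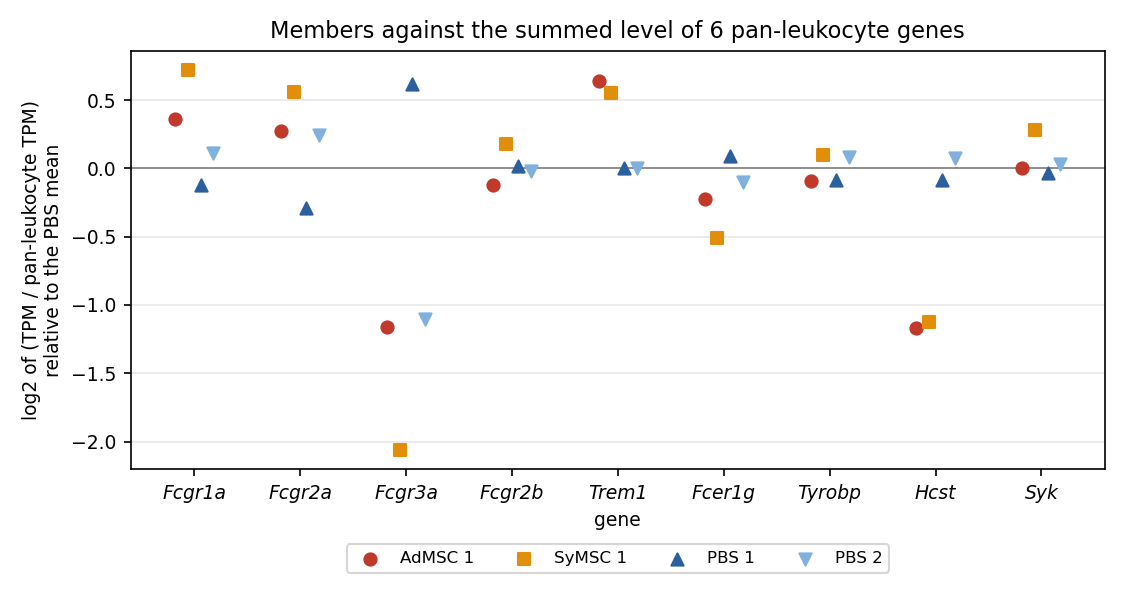
Each gene's TPM divided by the summed TPM of 6 pan-leukocyte genes in the same library, as log2 relative to the mean of the PBS libraries; each point is 1 library. Fcgr1a, Fcgr2a and Trem1 lie higher in both injected libraries, Fcer1g, Hcst and Fcgr3a lower, and Tyrobp lies at about 0 throughout. For Fcgr2a and Fcgr3a, AdMSC 1 lies close to PBS 2.

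The genes with the most similar pattern over the libraries were also found for each member. Likeness was the root mean square difference of log2(TPM + 1) centred over the 4 libraries, a description over only 4 points, most of whose variation is that between injected and PBS tissue. Igsf6, an immunoglobulin superfamily gene of myeloid cells, was nearest to Fcgr1a (0.0102), Cd300a to Fcgr2a (0.0666) and Rin3 to Fcgr2b (0.0336). Lcp1, the leukocyte actin-bundling protein, was nearest to Trem1 (0.038), Litaf to Fcer1g (0.0394), Plcb2 to Tyrobp (0.0426), Ddit4 to Syk (0.0397) and Zdhhc18 to Hcst (0.0227). The nearest gene to Fcgr3a was Trmt61a (0.0964), and Klrk1 was also among its nearest 3 (0.224). Some neighbours were shared: Ddit4 was among the nearest 3 of both Fcgr2b and Syk, and Arid3a of both Tyrobp and Syk. Among the 9 genes themselves the closest pair was Fcgr2b and Syk (0.0525), followed by Tyrobp and Syk (0.0527), and Fcgr1a and Fcgr2a stood 0.118 apart.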

How the data were processed

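Polyadenylated RNA of synovium was sequenced on a BGISEQ-500, per the labels' protocols. The deposited values are TPM made by the authors, per the file headers; each column sums to 1000000 over 17899 rat genes. HISAT2 2.0.4 and the build Rnor_6.0 are named in the submitters' processing notes, with no role. The counter, annotation, strand setting and any separation of human from rat reads are not stated in the labels. Groups followed the treatment label, and columns were matched to titles, in which the PBS libraries are called mix. Where a symbol occurred more than once (5 rows), the symbol stayed with the row of higher mean. All sample columns were used.

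Genes that reached 1 TPM in 2 or more libraries were tested on log2(TPM + 1) with limma 3.58.1 (R 4.3.3; eBayes, trend and robust) and Benjamini-Hochberg adjustment over all genes. One fit set the 2 injected libraries against the 2 PBS libraries (residual degrees of freedom: 2), and another had 3 groups (residual degrees of freedom: 1). The log2(TPM + 1) scale understates changes of low genes. Between 12582 and 13155 genes reached 1 TPM per library; the depth is unknown. The members and lists were chosen with earlier results of these data known. All 9 members were named; for each other pathway list up to 4 genes, ranked by size of change among called genes and then by mean level, and any further gene was chosen after its values were seen. Some genes picked by that rule are not reported here. For likeness the 3 nearest genes with a mean of at least 5 TPM were found. 16718 of 17899 gene IDs matched RefSeq (GRCr8), used for names, neighbours and promoter windows. No table of proteins was used here. Alternatives were median-ratio and upper-quartile scaling, rescaling without muscle, erythroid and platelet genes, no filter, an added 0.1 in place of 1, a block for the title word, leaving out each library, and other reference genes for ratios.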

Additional observations from a re-analysis of the deposited data

How the results depend on the processing

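With each library left out in turn, between 8 and 9 of the 9 genes were called, the ninth being Fcgr3a without PBS 1 (log2 change 1.53, limma adjusted p = 0.00736). Under the other scalings, no filter and a pseudocount of 0.1 the same 8 genes were called, and 89 of 90 alternative values for single members stayed on their side of the threshold. Over all genes the called number ranged from 4590 to 6783, beside 6476. With the title arm (Ad or Sy) as a replicate block 8 of the 9 genes and 6590 genes were called. Fcgr3a again did not pass in that fit, but by less (limma adjusted p = 0.0553, beside 0.29 without the block). The titles share only a word, and no pairing was assumed. Between the cell sources, the difference of Fcer1g (-0.04) turned to 0.0506 under median-ratio and 0.0194 under upper-quartile scaling, and 0 members were called under each of the 4 alternatives. For ratios to leukocyte genes, the number of members higher in both injected libraries was 3 with the pan-leukocyte sum, 2 with Ptprc, 7 with the monocyte and macrophage markers and 8 with those markers without Lyz2, a reference chosen after seeing the data. With Ptprc the log2 ratio turned to -0.30 for Fcgr2b, -0.33 for Tyrobp and -0.19 for Syk. With the monocyte and macrophage markers it turned to 0.68 for Fcer1g, and without Lyz2 to 1.12 for Fcer1g and 0.36 for Hcst. The references rose by different amounts (5.05-fold for the pan-leukocyte sum, 6.44-fold for Ptprc, 2.47-fold for the markers and 1.76-fold without Lyz2). The share of Fcgr2b differed by -3.25 percentage points, and by -3.78 without Fcgr1a in the sum. Depth is unknown, so values near 1 TPM are imprecise by an unknown amount.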
